A study of Mus musculus with 6 samples.

Results

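The desmosome components are the building blocks of the junctions that rivet keratinocytes to one another. The list held 10 genes, namely the desmogleins Dsg1a, Dsg2 and Dsg3, the desmocollins Dsc1, Dsc2 and Dsc3, desmoplakin (Dsp), plakoglobin (Jup) and the plakophilins Pkp1 and Pkp3. A probe set (a group of short array probes for 1 transcript) was taken as a member where the platform annotation gave it exactly 1 of these symbols. This gave 20 of 45101 probe sets, for 9 of the 10 genes, and no such probe set was found for Dsg3. After a filter on mean signal, 16 of the 20 were among the 22518 probe sets tested, and every one of the 9 genes kept at least 1. The 4 that did not pass the filter were all of Dsg2, with single-sample signals between 3.78 and 154.2.

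RNA of mouse skin at embryonic day 16.5 was measured on Affymetrix arrays, 1 array per sample, in 3 Tcfap2c mutant and 3 control samples. The product of Tcfap2c, now called Tfap2c, is the transcription factor AP-2 gamma, which acts in surface ectoderm and epidermis. The labels name no allele, Cre line, zygosity, strain or litter and do not say what the controls carry. The description field of the control samples also mentions the mutation, and the titles, source names and design text were followed here. Nothing says that samples came from separate litters or were single embryos, so the p-values reflect only how these 6 samples varied. The number of arrays limits the precision.

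In a desmosome, desmogleins and desmocollins are cadherins whose outer parts bind those of the neighbouring cell. Their tails hold plakoglobin and plakophilins, which bind desmoplakin, and desmoplakin ties the junction to keratin filaments. In stratified epidermis the cadherins change with layer: Dsg3 and Dsc3 are typical of the lower layers, Dsg1 and Dsc1 of the upper ones, while Dsg2 and Dsc2 are the forms of simple epithelia and heart that are also made in skin. In the mouse reference GRCm38.p6 the cadherin genes lie side by side in 1 cluster in the order Dsc3, Dsc2, Dsc1, Dsg1c, Dsg1a, Dsg1b, Dsg4, Dsg3 and Dsg2.

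The cadherin genes of this cluster were left out of a promoter search. Of the remaining members, Dsp and Jup had a start-site window in the RefSeq promoter table (build GRCm38.p6). The 250 bases before each start were searched for GCCNNNGGC, the core motif of AP-2 factors, which reads the same on both strands. The window of Dsp, chr13:38151044-38151293 on the plus strand, held 1 match, beginning 75 bases before the start, and that of Jup held none. Only the Dsp window is shown, because it held a match. Capitals mark the match.
Dsp: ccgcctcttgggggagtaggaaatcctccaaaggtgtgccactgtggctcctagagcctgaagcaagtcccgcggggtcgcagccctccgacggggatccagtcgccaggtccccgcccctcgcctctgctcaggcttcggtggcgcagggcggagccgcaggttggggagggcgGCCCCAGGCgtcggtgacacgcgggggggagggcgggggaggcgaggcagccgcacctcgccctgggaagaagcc
The same letters stood in 4509 of 32851 windows of this length in the table, or 13.7%. The match describes the sequence, and binding there was not tested.

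Mutant sample 1 stood apart from the other 5 samples. Its array correlated with the others at a mean of 0.94, against 0.961 and 0.965 for the other mutant samples and 0.966 to 0.97 for the control samples. A list of 7 uterine, decidual and smooth muscle genes summed to a signal of 72437 in mutant sample 1 and to 2797 and 2217 in the other mutant samples, against 2511 to 2986 in the controls. The summed signal of 7 basal keratinocyte genes was 35998 in mutant sample 1 and 66722 and 54619 in the other mutant samples, against 54131 to 59349 in the controls. The ratio of the 3′ to the 5′ control probe set of beta-actin, a measure of RNA integrity, was 1.69, 1.53 and 1.36 in mutant samples 1, 2 and 3, against 1.37 to 1.48 in the controls. For Gapdh the same ratio was 0.804, 0.820 and 0.789 in those mutant samples, against 0.757 to 0.781 in the controls, without overlap. Mutant sample 1 had the lowest signal of all 6 in 9 of the 16 tested desmosome probe sets, while over all probe sets tested it was the lowest in 31.0%. Values without it therefore stand beside the differences below. In whole skin, fewer cells of a type and less RNA per cell cannot be told apart. The epidermal marker Krt10, the keratin of suprabasal cells, was bright in every sample, at 44371, 55935 and 44657 in the mutant group, against 53861, 38888 and 39346 in the control group.

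None of the 16 desmosome probe sets passed an adjusted p of 0.05, in either direction, in limma, adjusted by Benjamini-Hochberg across the whole table, where 0.00444% of all probe sets passed. Differences are mutant minus control on the log2(signal + 24.48) scale, which understates the change of dim probe sets. At an unadjusted p under 0.05 there were 3 of 16, beside 3.42% of all probe sets. Of these, 2 were higher and 1 lower in the mutant samples, beside 1.45% and 1.97% of all. Mutant and control samples did not overlap in 3 of 16, beside 8.33% of all, again with 2 higher and 1 lower, beside 3.30% and 5.03%. Counting each gene by its brightest probe set (highest mean log2 signal), 2 of 9 differences were positive and 7 negative, with a median of -0.15 beside -0.01 over all 11589 genes. Without mutant sample 1, that median was -0.04, and none passed an adjusted p of 0.05, beside 0.173% of all probe sets. The count at an unadjusted p under 0.05 was then 4 of 16, beside 7.15% of all, and 4 of 16 did not overlap, beside 22.7% of all. Without mutant sample 2, 7 of 16 had an unadjusted p under 0.05, beside 5.72% of all. The same count was 7 with the Xist signal of each sample as a covariate, beside 8.18%, and 7 with array weights, beside 11.2%. Xist gave 6732, 67.9 and 116 in mutant samples 1, 2 and 3, against 5520, 6313 and 120 in control samples. Among the mutant samples it was high in sample 1 alone, so there the covariate cannot be told apart from that sample's other differences.

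**Figure D1:**
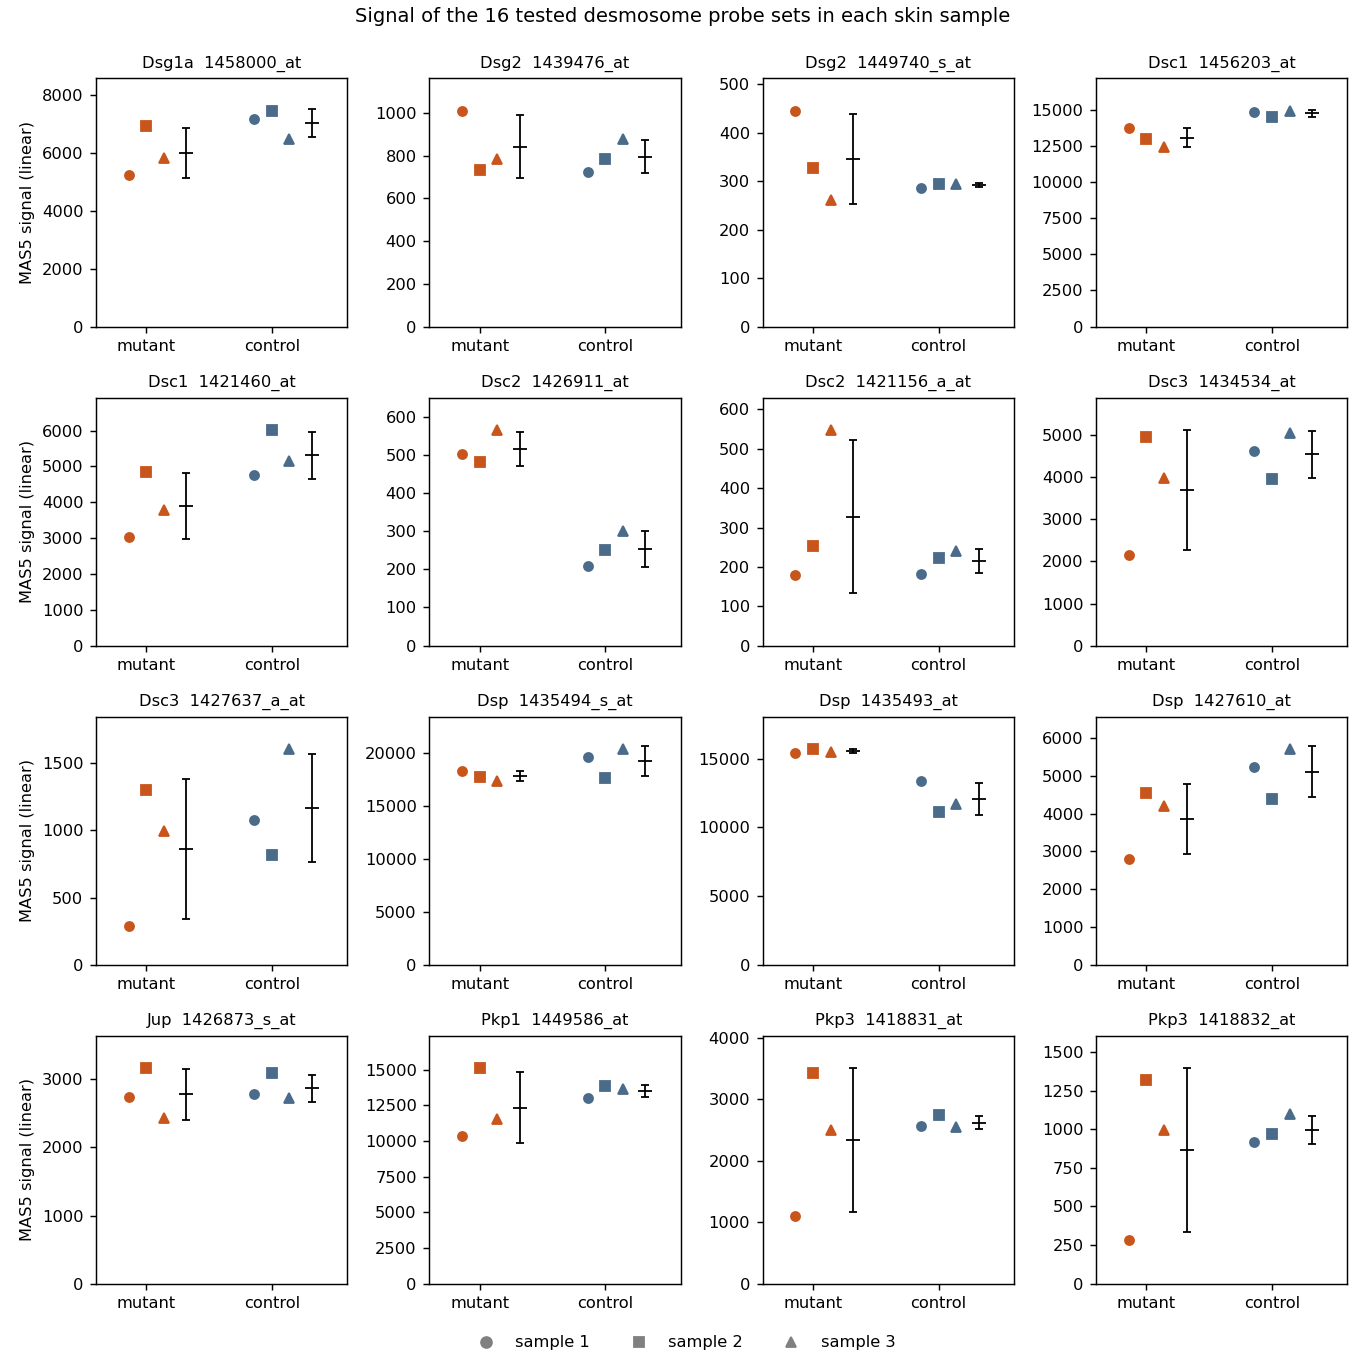
MAS5 signal (linear axis from 0) of each tested desmosome probe set in 3 mutant and 3 control samples, with symbols for sample number and a bar for the mean and SD of each group. Dsc2 probe set 1426911_at and Dsp probe set 1435493_at lie higher in every mutant sample, Dsc1 probe set 1456203_at lower, and mutant sample 1 is the lowest point for Dsc3 and Pkp3.

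Among the desmocollins, Dsc2 had the largest difference of any member. Its brighter probe set, 1426911_at, gave signals of 501, 481 and 565 in mutant samples 1, 2 and 3, against 208, 252 and 301 in control samples 1, 2 and 3. All mutant samples lay above all control samples. Mean signal was 515 ± 44 for mutant skin, against 253 ± 46 for control skin (SD, n = 3 each), which is 0.97 on the log2 scale (SE 0.18, 95% interval 0.55 to 1.38) or 1.96-fold, with a limma adjusted p of 0.426. Over the 19 other fits of this probe set the difference was 0.85 to 1.09 and the limma adjusted p 0.0208 to 1.0, and it passed in 1 of them, array weights. Averaged over both tested probe sets of the gene, the difference was 0.70. For probe set 1426911_at alone, the difference without mutant sample 1 was 0.99 (limma adjusted p = 0.145).

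The other Dsc2 probe set, 1421156_a_at, had signals of 180, 254 and 548 in mutant samples, against 182, 223 and 239 in control samples. Here mutant sample 3 was far above the rest and mutant sample 1 was the lowest of the 6, so the groups overlapped. The difference was 0.42 (SE 0.35), 0.75 without mutant sample 1, 1.03 with array weights and 0.00 without mutant sample 3. Both probe sets of Dsc2 thus shared a sign, with 1 of them depending on a single sample.

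Markers of simple epithelium, where Dsc2 is also made, were read beside it. Of 7 such genes 6 were tested, and 3 were higher at an unadjusted p under 0.05 (Krt8, Krt18 and Krt19), beside 1.58% of all genes, with none past the adjusted threshold. The other 3, Krt7, Cldn4 and Epcam, differed by 0.08, 0.13 and 0.07, and by 0.13, 0.41 and 0.14 without mutant sample 1. The summed signal of the 7 was 12501 to 13573 in mutant and 7434 to 9757 in control samples. Krt8, a keratin of simple epithelia, differed by 1.19 (limma adjusted p = 0.571), and by 0.87 without mutant sample 1. Of 5 cardiac muscle markers, also of a Dsc2-bearing tissue, Myh6, Nppa and Nkx2-5 did not pass the filter, with no signal above 81.4. The summed signal of the 5 was 3110 to 3304 in mutant and 2618 to 2870 in control samples. Most of that sum was Tnnt2, at 2784, 2778 and 2848 in mutant samples, against 2443, 2487 and 2231 in control samples. Myl7 overlapped between the groups. Tnnt2 differed by 0.23 in the probe set used for the sum. Its dimmer tested probe sets, 1424967_x_at and 1440424_at, differed by 0.26 and 0.66. None of these Tnnt2 probe sets overlapped between the groups, and without mutant sample 1 the differences were 0.24, 0.14 and 0.82. Whether cardiac cells were present was not tested. The part of either cell type in the Dsc2 difference was not tested.

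**Figure D2:**
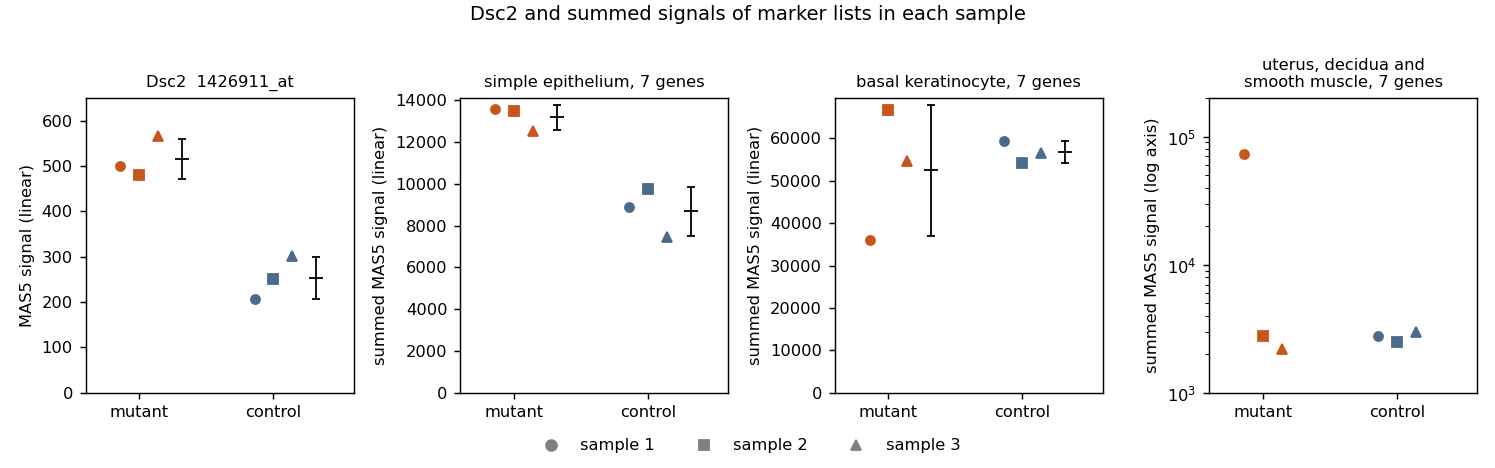
Signal of Dsc2 probe set 1426911_at and summed signals of 3 marker lists of 7 genes, in each mutant and control sample, with the mean and SD beside the points on linear axes and a log axis for the uterine list. Dsc2 and the simple epithelial sum are both higher in all 3 mutant samples, and the uterine sum is high in mutant sample 1 alone.

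Dsc1, the desmocollin of the upper epidermal layers, had negative differences in both of its probe sets. Probe set 1456203_at gave 13775, 13006 and 12445 in mutant samples, against 14876, 14487 and 14936 in control samples. The groups did not overlap, although the difference was small, at -0.18 (SE 0.10, limma adjusted p = 1.0), and it was -0.21 without mutant sample 1. The dimmer probe set, 1421460_at, gave 3021, 4846 and 3797 in mutant samples, against 4761, 6019 and 5137 in control samples. Mutant sample 2 lay just above control sample 1 there. Its difference was -0.47 (SE 0.18, 95% interval -0.88 to -0.06, limma adjusted p = 1.0) and -0.30 without mutant sample 1. The sign was negative in each of the 19 and 18 other settings run for these probe sets. Of 4 cornified layer markers, Flg and Tgm3 were lower at an unadjusted p under 0.05, beside 1.84% of all genes, and none passed the adjusted threshold with all 6 samples. Flg, which encodes filaggrin, gave 2967, 647 and 252 in mutant samples, against 11500, 8080 and 13151 in control samples, without overlap. Its difference was -3.70 (limma adjusted p = 0.426), and -4.64 without mutant sample 1, where it passed (limma adjusted p = 0.000525). Tgm3 differed by -0.62, and by -0.34 without that sample. Lor and Ivl differed by -0.08 and -0.27, and by 0.08 and -0.42 without mutant sample 1. A dimmer tested Ivl probe set, 1422222_at, not in that count, differed by -0.42 without overlap, and by -0.39 without mutant sample 1. Dimmer tested Lor probe sets, 1420183_at and 1420184_at, differed by -0.12 and -0.19, and by -0.07 and -0.45 without mutant sample 1. The summed signal of the 4 markers, each by its brightest probe set, was 38596 to 49484 in mutant and 52041 to 58018 in control samples. Without Flg these sums overlapped, at 35629 to 48836 in mutant and 42310 to 46518 in control samples. The part of these cells in the Dsc1 difference was not tested.

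Dsc3, the desmocollin of basal cells, depended on mutant sample 1. Probe set 1434534_at gave 2147, 4959 and 3982 in mutant samples, against 4624, 3945 and 5049 in control samples. Its difference of -0.37 (SE 0.27, limma adjusted p = 1.0) was -0.02 with mutant sample 1 left out, -0.62 when mutant sample 2 was dropped and -0.60 with the Xist covariate. Probe set 1427637_a_at gave 287, 1303 and 997 in mutant samples, against 1078, 821 and 1607 in control samples. It differed by -0.62 (SE 0.49), by 0.02 with mutant sample 1 left out, by -1.03 when mutant sample 2 was dropped and by -1.09 with the Xist covariate. The neighbours of Dsc2 in the gene cluster, Dsc3 and Dsc1, therefore had differences of the opposite sign to Dsc2 with all 6 samples, and the 3 were not tested against each other.

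Among the desmogleins, Dsg1a (probe set 1458000_at), the form of the upper layers targeted by antibodies in pemphigus foliaceus in humans, gave 5239, 6932 and 5845 in mutant samples, against 7173, 7462 and 6490 in control samples. Mutant sample 2 fell within the control range and the other mutant samples lay below it. The difference was -0.24 (SE 0.13, 95% interval -0.54 to 0.07, limma adjusted p = 1.0), and -0.14 without mutant sample 1. Dsg1b, its close copy in the mouse, differed by -0.32 (SE 0.21), or by -0.14 without mutant sample 1, and probes of such similar genes can share signal.

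Dsg2 differed little. Its brightest probe set, 1439476_at, gave 1011, 732 and 786 in mutant samples, against 723, 785 and 878 in control samples. The groups overlapped, with mutant sample 1 the highest of the 6. The difference was 0.07 (SE 0.17, 95% interval -0.31 to 0.45) with all samples and -0.06 without mutant sample 1. Probe set 1449740_s_at had its highest signal in mutant sample 1 as well, 446, with 328 and 262 in the other mutant samples, against 287 to 295 in control samples. It differed by 0.19 (SE 0.21), and by 0.01 without mutant sample 1. Of the 4 Dsg2 probe sets below the filter, which were not tested, 3 overlapped between the groups. The exception, 1460380_at, was 96.3 to 115 in mutant and 60.0 to 83.8 in control samples, while 1425619_s_at, tied to the same source sequence, was 79.0 to 150.5 in mutant and 77.7 to 153.3 in control samples.

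**Figure D3:**
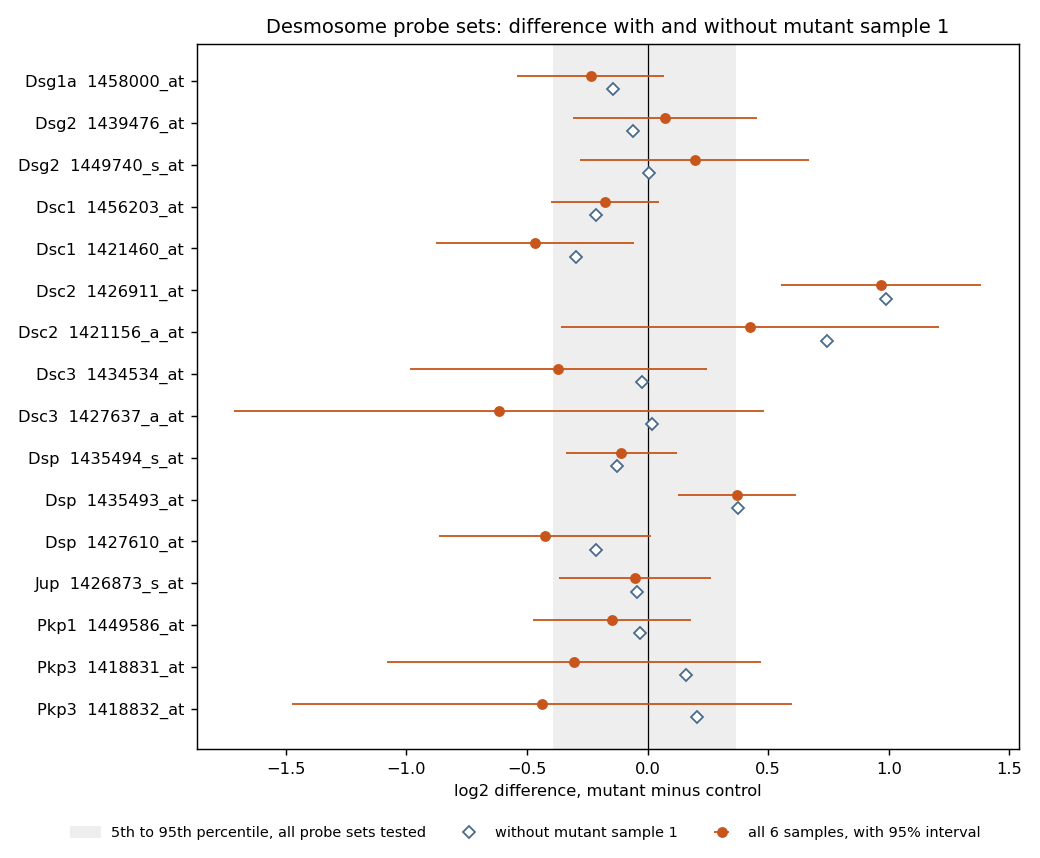
Log2 difference (mutant minus control, horizontal axis) of the 16 tested desmosome probe sets, as filled points with 95% intervals for all 6 samples and open diamonds without mutant sample 1. The grey band holds the 5th to 95th percentile of all probe sets tested (-0.39 to 0.36), and Dsc2 at 0.97 is the member farthest outside it, while Dsc3 and Pkp3 move to near or above 0 without mutant sample 1.

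Desmoplakin, the link to keratin, was read by 3 probe sets that went different ways. Probe set 1435493_at gave 15434, 15711 and 15513 in mutant samples, against 13398, 11119 and 11671 in control samples. Every mutant sample was above every control sample, and the mutant samples lay close together. The difference was 0.37 (SE 0.11, 95% interval 0.12 to 0.62, limma adjusted p = 1.0), and 0.38 without mutant sample 1.

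Probe set 1435494_s_at, which the platform annotation ties to the same source sequence, gave 18286, 17749 and 17320 in mutant samples, against 19599, 17653 and 20353 in control samples. Its groups overlapped, and the difference was -0.11 (SE 0.10), and -0.13 without mutant sample 1. Probe set 1427610_at gave 2798, 4547 and 4204 in mutant samples, against 5222, 4383 and 5708 in control samples. It differed by -0.43 (SE 0.19, 95% interval -0.87 to 0.01), and by -0.21 without mutant sample 1. No direction for Dsp as a gene follows from these readings.

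Plakoglobin, the armadillo protein shared by desmosomes and adherens junctions, had 1 probe set, 1426873_s_at. Jup gave 2731, 3164 and 2432 in mutant samples, against 2788, 3090 and 2718 in control samples. The control samples lay within the range of the mutant samples. The difference was -0.05 (SE 0.14), and -0.04 without mutant sample 1. With all samples its 95% interval was -0.37 to 0.26, so changes of that size are not excluded by these samples.

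The plakophilins, which cluster the cadherins and recruit desmoplakin, also depended on mutant sample 1. Pkp1 (probe set 1449586_at), typical of the upper layers, gave 10356, 15110 and 11534 in mutant samples, against 12987, 13817 and 13658 in control samples. The mutant samples lay on both sides of the control samples. The difference was -0.15 (SE 0.15, 95% interval -0.48 to 0.18), -0.03 without mutant sample 1 and -0.30 without mutant sample 2. Pkp3, made through all living layers, gave 1099, 3419 and 2493 with probe set 1418831_at in mutant samples, against 2557, 2738 and 2553 in control samples. The mutant samples spanned a far wider range than the control samples, with SDs of 1168 and 106 (n = 3 each). The difference was -0.31 (SE 0.34), 0.16 without mutant sample 1 and -0.65 without mutant sample 2. Probe set 1418832_at had the same order of mutant samples, at 284, 1318 and 997, against 918 to 1098 in control samples, and differed by -0.44, by 0.20 without mutant sample 1 and by -0.86 without mutant sample 2.

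Other genes tied to desmosomes were read from a list of 11, of which 9 had a probe set and 8 were tested. None passed over all genes, and 1 was lower at an unadjusted p under 0.05, beside 1.84% of all genes. With mutant sample 1 left out, 2 were higher (Evpl and Ppl) and 1 lower, beside 3.62% and 3.31% of all genes. The lower gene in both was Cdsn, which encodes corneodesmosin, the secreted glue of desmosomes in the cornified layer. Its signals were 1965, 2373 and 1430 in mutant samples, against 3924, 3707 and 6377 in control samples, without overlap. The difference was -1.26 (SE 0.24, limma adjusted p = 0.426), and -1.29 without mutant sample 1. Kazn, kazrin, which binds periplakin, differed by 0.76 (SE 0.34), with 732 in mutant sample 1 and 277 and 286 in the other mutant samples, against 192 to 250 in control samples. The Kazn difference was 0.32 without mutant sample 1. A dimmer tested Kazn probe set, 1431711_a_at, went the other way when that sample was dropped, from 0.43 to 0.69. Its signals were 129, 248 and 229 in mutant samples, against 128, 158 and 131 in control samples. Perp, a membrane protein of desmosomes that is a target of p63, differed by -0.03, and by 0.14 without mutant sample 1.

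The plakins envoplakin (Evpl) and periplakin (Ppl), which join desmosomes to the cornified envelope, each differed by 0.18. Without mutant sample 1 these were 0.49 and 0.43, neither past the adjusted threshold (limma adjusted p = 0.613 and 0.554). Pkp4 differed by 0.08 and Erbin by 0.17, and without that sample by -0.01 and 0.14. Dimmer tested probe sets, Pkp4 1438677_at and Erbin 1439079_a_at, differed by -0.11 and -0.16, and by -0.11 and -0.18 without that sample. Of the remaining tested Erbin probe sets, 1439638_at differed by -0.02 and 1439080_at by 0.16. No direction for Pkp4 or Erbin as a gene follows from these readings. Pkp2, the plakophilin of heart and simple epithelia, did not pass the filter in any of its probe sets. Its brightest value was 396 in mutant sample 1 (probe set 1449799_s_at), with 8.75 and 50.8 in mutant samples 2 and 3, against 47.8 to 71.8 in control samples.

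The adherens junction, the actin-linked partner of the desmosome, had all 12 listed genes tested, and none passed over all genes. At an unadjusted p under 0.05, 2 were higher and 0 lower, beside 1.58% and 1.84% of all genes. E-cadherin, Cdh1, gave 4924, 5639 and 5650 in mutant samples, against 4756, 4235 and 4207 in control samples, without overlap and with a difference of 0.29 (SE 0.12), or 0.36 without mutant sample 1. Afadin, Afdn, which couples nectins to actin, differed by 0.39, also without overlap, and by 0.29 without mutant sample 1. Without that sample the 2 genes higher at an unadjusted p under 0.05 were Cdh1 and Nectin4 (0.42). Alpha-catenin, Ctnna1, differed by 0.17 and N-cadherin, Cdh2, by -0.23, and without mutant sample 1 by 0.08 and -0.30. Dimmer tested Ctnna1 probe sets, 1448149_at and 1436631_at, had the opposite sign, at -0.02 and -0.08, and at -0.02 and -0.05 without mutant sample 1. The median over the 12 genes was 0.04, and 0.05 without mutant sample 1.

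Of 10 keratins that desmosomes anchor, 9 were tested and none passed over all genes, with a median of -0.08, and 0.12 without mutant sample 1. Krt16 and Krt17, keratins of periderm, appendages and stressed epidermis, were lower at an unadjusted p under 0.05, with differences of -0.56 and -0.83, and no keratin was higher, beside 1.84% and 1.58% of all genes. Without mutant sample 1 these differences were -0.58 and -0.44, and the count became 3 higher (Krt6a, Krt15 and Krt77) and 1 lower (Krt16), beside the shares of 3.62% and 3.31% given above. Krt16 gave 248, 230 and 252 in mutant samples, against 370, 333 and 412 in control samples, and the groups did not overlap. Krt77 differed by 0.37 and Krt5, the basal keratin, by -0.23, and without mutant sample 1 by 0.61 and 0.00.

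Of 11 regulators of desmosomal genes or of cadherin shedding, all 11 were tested, with 0 at an unadjusted p under 0.05, beside 3.42% of all genes, and a limma adjusted p of 1.0 at the lowest. Leaving out mutant sample 1 gave 2 higher (Grhl3 and Zfp750) and 1 lower (Prkca), beside 6.94% of all genes in either direction. The median was -0.05, and 0.06 without that sample. Grhl3, a grainyhead factor of epidermal differentiation, differed by 0.31, Prkca by -0.25, Zfp750 by 0.17 and the sheddase Adam17 by -0.12. These were 0.55, -0.50, 0.40 and -0.02 without mutant sample 1. A dimmer tested probe set of Prkca, 1450945_at, had the opposite sign, at 0.10, and 0.17 without mutant sample 1. No direction for Prkca as a gene follows from these readings. Grhl1, a grainyhead factor that in mice is needed for normal Dsg1 levels, differed by -0.09, and by 0.06 without mutant sample 1. Tfap2c itself differed by 0.12 (SE 0.14), or by 0.03 without mutant sample 1, and since the labels do not give the altered part of the gene, this does not check them.

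**Figure D4:**
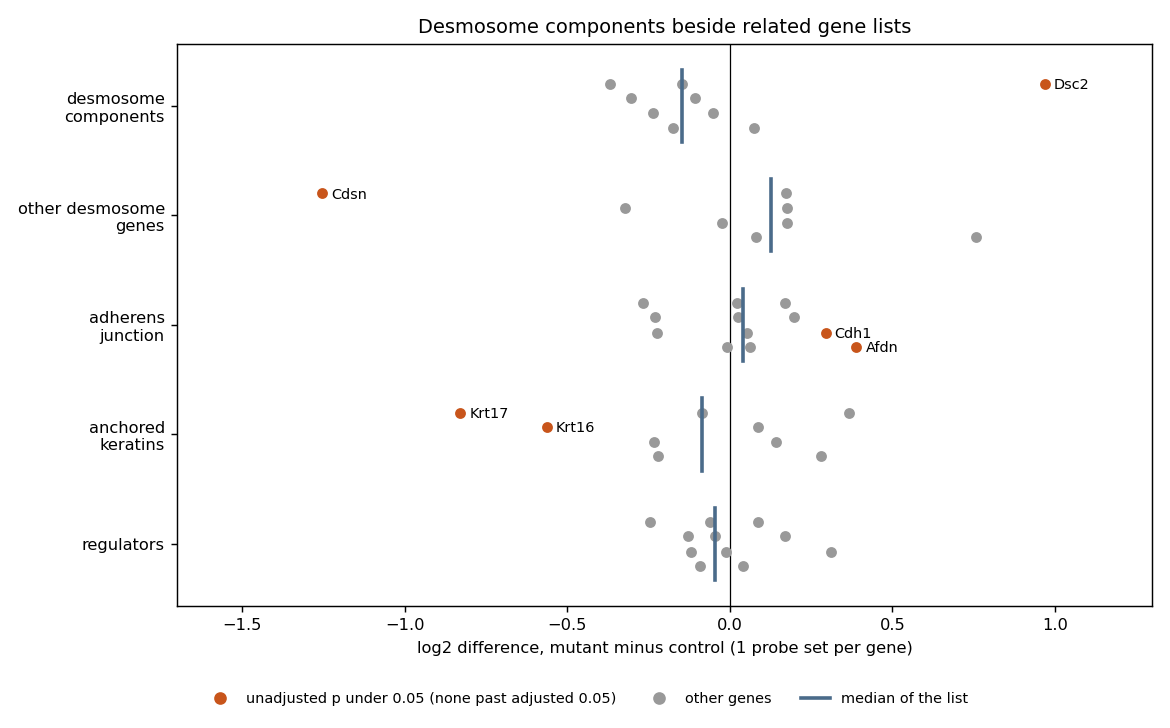
Log2 difference (mutant minus control) of each tested gene, 1 probe set per gene, in the desmosome list and 4 related lists, with a vertical bar at each list's median. Orange points had an unadjusted limma p under 0.05. Dsc2 at 0.97 and Cdsn at -1.26 lie at the opposite ends, and the list medians lie between -0.15 and 0.13.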

How the data were processed

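The values are MAS5 signals as the authors deposited them, a linear intensity for each probe set, with MAS5 named without a version in the submitters' processing notes. Trimmed by 2% at both ends, every array averaged 500.003, which shows the deposited intensity was scaled per array. RNA came from a Qiagen kit and carried a biotin label, per the labels' protocols. Analysis used log2(signal + 24.48), the pseudocount being the 20th percentile of all values. Affymetrix control probe sets (64) were dropped, as were probe sets whose mean did not exceed the median (signal about 114.5). Titles gave the groups. Limma 3.58.1 in R 4.3.3 tested mutant minus control (mean-variance trend, two-sided) on 22518 probe sets with Benjamini-Hochberg adjustment and a threshold of 0.05, after a trial on simulated data. Names came from GEO's platform annotation, brought up to date with RefSeq (GRCm38.p6). The members and lists were chosen with earlier results of these data known. Named are all members, the other desmosome genes and up to 4 genes of each further list, by smallest p. Krt10, Krt6a, Krt15, Krt7, Epcam, Nectin4, Grhl1, Pkp2's brightest value and the marker sum without Flg were added after their values were seen. So were the dimmer tested probe sets of Kazn, Prkca, Tnnt2, Ivl, Lor, Pkp4, Erbin and Ctnna1. The Gapdh ratios, the Xist signals and the signals of single cardiac markers were also added then. A further gene of the regulator list is not reported here. Figures used matplotlib 3.10.9.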

Additional observations from a re-analysis of the deposited data

How the results depend on the processing

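Array weights (0.257, 0.56 and 3.13 for mutant samples 1 to 3) gave 106 probe sets past the adjusted threshold and 1 desmosome member, Dsc2 probe set 1426911_at (difference 1.06, limma adjusted p = 0.0208, range over its 19 other fits 0.0208 to 1.0). A replicate block gave 8 probe sets and 0 members. The deviations of samples that share a number had correlations of -0.052, -0.073 and 0.11, no sign of pairing. With each sample left out in turn, 1 to 39 probe sets passed, the 39 coming without mutant sample 1, and 0 members did in each case. The members' median was then between -0.173 (mutant sample 2 out) and -0.0441 (mutant sample 1 out), and with quantile normalization it was -0.18.

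Of 301 member values under alternatives, 7 had the other sign, none past the threshold. With array weights Dsg2 1449740_s_at was at -0.0532. The others arose when a sample was left out. Their ranges over such fits were -0.0616 to 0.165 for Dsg2 1439476_at, -1.03 to 0.0181 for Dsc3 1427637_a_at, -0.65 to 0.158 for Pkp3 1418831_at and -0.856 to 0.204 for Pkp3 1418832_at, with the other sign without mutant sample 1. For Jup the range was -0.149 to 0.0389, positive without mutant sample 3 and without control sample 2 (0.0036). The cause was not tested. Probe sets of 1 gene that disagree, as for Dsp, and the 4 dim Dsg2 probe sets limit what can be said of those genes.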
